A study of Homo sapiens and Mus musculus with 24 samples.

Results

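The genes described here are the core genes of nucleotide excision repair (NER), namely XPA, XPC, DDB1, DDB2, ERCC1, ERCC2, ERCC3, ERCC4, ERCC5 and ERCC6. They were taken by symbol, through GENCODE identifiers, as 10 of the 58381 genes listed for human samples and as the 10 mouse genes with the same symbols among 53715. RNA was measured in 4 cell types, each with 3 nonirradiated and 3 UV-irradiated samples, 24 samples in all. HepG2 is a human hepatocellular carcinoma line, HEK293 a human embryonic kidney line that the study's methods call HEK293T, and Neuro2a a mouse neuroblastoma line. HippCulture is a primary culture of hippocampal cells taken from E16.5 mouse embryos, which according to the methods came from C57/BL6NCr mice and were exposed, for a limited time soon after plating, to cytosine arabinoside (AraC), a drug that blocks dividing cells, against glia. The labels name no genotype or engineered allele for any sample.

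NER removes helix-distorting lesions, above all the pyrimidine dimers that UV light makes in DNA. XPC and the UV-DDB complex of DDB1 and DDB2 find lesions anywhere in the genome, while ERCC6 (CSB) binds RNA polymerase II stalled at a lesion in a transcribed gene. Both routes bring in TFIIH, whose helicases ERCC2 (XPD) and ERCC3 (XPB) open the helix, then XPA, which verifies the damage, and the nucleases ERCC5 (XPG) and ERCC1-ERCC4 (XPF), which cut the strand on either side.

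In UPA-seq, the method used, UV is a crosslinker and not a stress applied over time. Cells were irradiated on ice and extracted with phenol and chloroform, and RNA joined to protein by UV leaves the aqueous phase with the denatured protein. The UV samples therefore hold the RNA still recovered from the aqueous phase, and a log2 fold change of UV over nonirradiated samples describes how the reads of an mRNA changed relative to the other RNAs of the library. Crosslinks left on RNA can also hinder reverse transcription, as the study describes for its own material, so these reads do not measure extraction alone. Whether transcription of a gene changed between irradiation and extraction was not tested, and the sources used here give no time between these steps.

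UV crosslinks uridines most readily, so coding sequence is shown first for ERCC1 and ERCC6, which were called in all 4 cell types, and for ERCC4, called in opposite directions. XPA was also called in all 4 cell types, and its sequence is not shown. For each, the stretch of 60 bases with the most T inside a single coding exon was taken from the reference genome, and capitals mark T, which is U in the mRNA. ERCC1 was higher after UV in all 4 cell types and ERCC6 lower in all 4, while ERCC4 was lower in both human lines and higher in HippCulture.
ERCC1 human: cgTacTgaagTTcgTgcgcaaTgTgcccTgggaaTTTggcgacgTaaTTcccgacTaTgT
Ercc1 mouse: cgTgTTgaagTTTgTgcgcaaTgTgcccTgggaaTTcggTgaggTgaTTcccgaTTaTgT
ERCC4 human: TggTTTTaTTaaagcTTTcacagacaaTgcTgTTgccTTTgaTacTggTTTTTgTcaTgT
Ercc4 mouse: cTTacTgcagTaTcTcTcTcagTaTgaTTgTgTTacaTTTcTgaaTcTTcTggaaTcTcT
ERCC6 human: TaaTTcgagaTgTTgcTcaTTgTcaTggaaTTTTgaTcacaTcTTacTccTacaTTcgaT
Ercc6 mouse: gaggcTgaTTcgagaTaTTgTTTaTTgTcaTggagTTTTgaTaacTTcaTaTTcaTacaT
The ERCC1 stretch lies on the minus strand of hg38 at chr19:45420357-45420416 in exon 3 of 8 and holds 17 T, and that of mouse Ercc1 lies on the plus strand of mm10 at chr7:19350172-19350231 in exon 4 of 10 with 20 T. The ERCC4 stretch is on the plus strand at chr16:13926646-13926705 in exon 4 of 12 with 27 T, and that of mouse Ercc4 on the plus strand at chr16:13125337-13125396 in exon 5 of 11 with 26 T. The ERCC6 stretch is on the minus strand at chr10:49483450-49483509 in exon 9 of 21 with 24 T, and that of mouse Ercc6 on the plus strand at chr14:32557841-32557900 in exon 9 of 21 with 25 T. These counts of T are a description, since the richest of all windows tends to hold more T in a longer coding sequence. The coding sequence has 972 (human) and 897 (mouse) bases for ERCC1, 2889 and 2754 for ERCC4, and 4482 and 4446 for ERCC6. A relation of these windows to the change upon UV was not tested.

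Read counts on genes came to between 36573473 and 53511592 per HepG2 sample and between 6910907 and 11188033 per sample of the other cell types. The HepG2 libraries were run on another sequencer model, which cannot be told apart from the cell line. The labels do not say that replicates were separate cultures, while the paper calls those of its RNA sequencing biological, and p-values measure the spread between these samples. HepG2 carried its 6 liver markers (summed 7838 to 9856 RPKM, at most 0.341 in HEK293), and HippCulture all 6 neuronal markers (251 to 274 RPKM) beside glial ones (103 to 108 RPKM over 10 genes, with Slc1a3 at 53.9, Olig1 at 20.4 and Gfap at 18.7). Neuro2a carried Hand2 (49.4 RPKM, beside 0.0166 in HippCulture) and Chga (48.9, beside 31.0 in HippCulture), while Isl1 (0.18) was close to 0.

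The 10 most counted genes took 19.3% to 23.1% of the counts of nonirradiated HepG2 samples and 39.3% to 40.5% after UV, with rises of the same kind in the other cell types. Values below are normalized CPM, read counts scaled to the library size and by edgeR's TMM factors, which take such shifts into account. Scaling by library sizes alone shifted the median log2 fold change of all genes to -1.38 (HepG2, from -0.08), -0.84 (HEK293, from -0.08), -1.32 (Neuro2a, from -0.14) and -0.59 (HippCulture, from -0.04), so every fold change of UV over nonirradiated samples is relative to the other genes. Under that scaling the log2 fold change of ERCC1 stayed positive (0.03, 0.33, 0.15 and 0.49 in the same order, called in HippCulture alone) and ERCC6 was still called lower (-2.26, -1.69, -2.39 and -1.27), whereas the positive values of XPA, XPC, ERCC2 and ERCC3 turned negative in all 4 cell types.

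All 10 genes passed the filter of a mean of 0.5 CPM in nonirradiated samples in each cell type. In HepG2, 6 were called higher and 2 lower after UV by edgeR's quasi-likelihood test at an adjusted p under 0.05, where 38.1% and 40.7% of the 20117 genes tested were called. The corresponding numbers were 3 higher and 2 lower in HEK293 (24.2% and 26.4% of 20472 genes), 4 higher and 1 lower in Neuro2a (28.9% and 33.0% of 17425 genes) and 6 higher and 1 lower in HippCulture (26.1% and 25.9% of 18488 genes). All 10 genes code for protein, and of the protein-coding genes tested 45.9%, 27.9%, 33.3% and 30.9% were called higher in HepG2, HEK293, Neuro2a and HippCulture and 34.2%, 25.8%, 31.5% and 24.9% lower. With 10 genes these counts are a description. In the same order, the median log2 fold changes of the 10 genes were 0.40, 0.08, 0.15 and 0.30, beside -0.08, -0.08, -0.14 and -0.04 over all genes and 0.17, 0.0106, -0.0344 and 0.0530 over protein-coding genes. In HEK293, samples with the same replicate number deviated together, and with the number as a block 4 genes were called lower and 4 higher there, where 35.3% of all genes were called lower and 32.7% higher. Fewer genes were called higher in HippCulture, 3 of 10, without the nonirradiated sample 1 or the UV sample 3, and 2 were called lower in Neuro2a without the nonirradiated sample 2. The number called higher in HippCulture was also 3 by DESeq2, with at least 1 count and with at least 10 counts in every sample. Under these settings 21.9%, 13.9% and 31.0% of all genes were called higher.

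**Figure D1:**
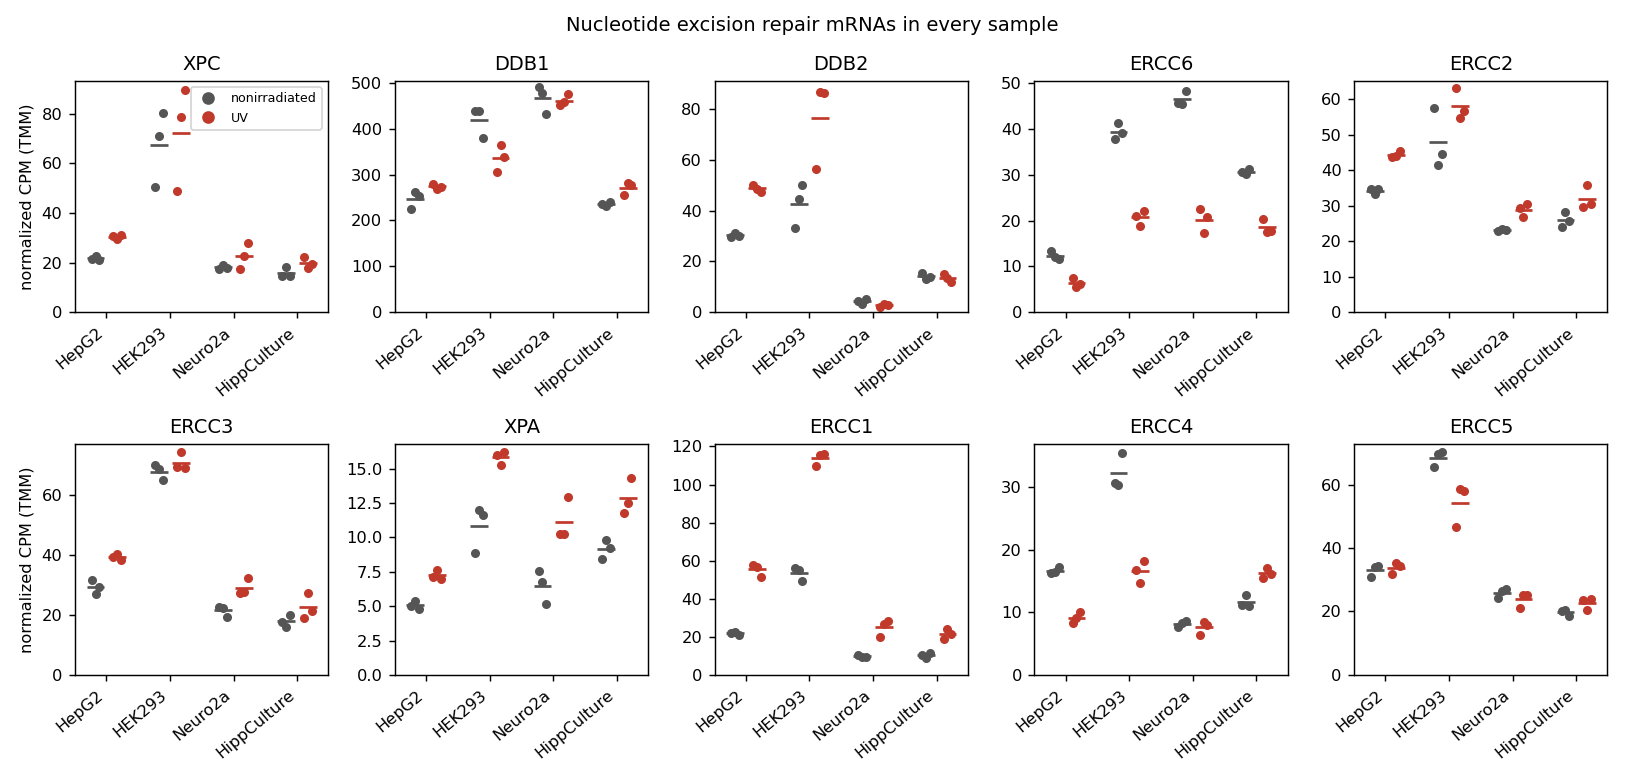
Normalized CPM (vertical axes, linear from 0) of the 10 genes in every sample of the 4 cell types, nonirradiated in grey and UV in red, with a bar at each group's mean. ERCC6 is lower and ERCC1 higher in the UV samples of all 4 cell types, while ERCC4 is lower in HepG2 and HEK293 and higher in HippCulture.

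Among the damage recognition genes, DDB2, the subunit of UV-DDB that contacts the lesion, rose in both human lines and was not called in either mouse cell type. A difference between the species was not tested, and species cannot be told apart from cell type here. In HepG2 its values were 29.8, 31.3 and 30.1 normalized CPM without and 50.2, 48.7 and 47.5 with UV, and in HEK293 they were 33.2, 44.7 and 50.2 without and 56.4, 86.8 and 86.2 with UV. In both lines every UV sample lay above every nonirradiated one, and DDB2 rose by a log2 fold change of 0.68 ± 0.06 (SE, adjusted p = 1.26e-05, edgeR) and 0.84 ± 0.21 (adjusted p = 0.00897, edgeR), although scaling by library size alone gave -0.62 and 0.08. In Neuro2a the mouse gene was scarce, with 4.59, 3.13 and 5.26 normalized CPM without and 2.05, 3.08 and 2.87 with UV, from 43 to 59 reads per nonirradiated sample. Every UV sample was lower there, but the log2 fold change of -0.69 ± 0.29 missed the threshold (adjusted p = 0.0534, edgeR). It passed under 6 other settings and without the nonirradiated sample numbered 2 (-0.88, adjusted p = 0.0187, edgeR). Among these settings is scaling by library sizes alone, under which 73.8% of all genes were called lower. In HippCulture the values of 15.3, 13.2 and 13.7 without and 14.9, 13.3 and 11.9 with UV overlapped, and the log2 fold change was -0.08 ± 0.14 (adjusted p = 0.65, edgeR). Mouse Ddb2 shares 652 of its 2736 exon bases with Acp2 on the other strand, and since the counting used no strand, part of its reads may be those of Acp2, whose log2 fold change was -0.42 in Neuro2a and -0.01 in HippCulture.

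DDB1, the partner of DDB2 and an adaptor of the CUL4 ubiquitin ligase, was the most abundant of the 10 mRNAs and moved little. Its 3 UV samples ranged from 270 to 280 normalized CPM in HepG2 against 224 to 262 without UV (log2 fold change 0.16 ± 0.08, adjusted p = 0.102, edgeR). In HEK293 they ranged from 307 to 365 against 380 to 439, all lower, with a log2 fold change of -0.32 ± 0.13 that missed the threshold (adjusted p = 0.0756, edgeR) and passed with the replicate block (adjusted p = 0.000241, edgeR). In HippCulture DDB1 rose slightly, from between 230 and 241 to between 254 and 282 normalized CPM (log2 fold change 0.20 ± 0.08, adjusted p = 0.0393, edgeR). That call was lost without the nonirradiated sample 1 or 2 or the UV sample 2 or 3 (log2 fold change 0.17 to 0.23). In Neuro2a, ranges of 431 to 490 without and 451 to 475 with UV overlapped, at a log2 fold change of -0.02 ± 0.09. Human DDB1 shares 521 of its 13950 exon bases with TKFC on the other strand. TKFC was called higher in both human lines (log2 fold change 0.91 in HepG2 and 0.53 in HEK293). Its counts without UV came to 42.1% and 6.93% of those of DDB1. The part of such shared reads in the values of DDB1 was not tested. The mouse gene shares no exon base.

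XPC, which binds the distorted helix in global genome repair, rose in HepG2 from 21.3, 22.6 and 21.1 to 30.7, 29.5 and 31.1 normalized CPM (log2 fold change 0.49 ± 0.07, adjusted p = 0.00017, edgeR). In HEK293 its values scattered, at 50.6, 71.0 and 80.4 without and 48.9, 78.7 and 89.4 with UV, and the groups overlapped widely (log2 fold change 0.11 ± 0.24, adjusted p = 0.736, edgeR). The sample numbered 1 was the lowest of both groups, and DDB2 showed the same order of sample 1 below the others. In Neuro2a the log2 fold change was 0.32 ± 0.15 (adjusted p = 0.0837, edgeR), and in HippCulture it was 0.34 ± 0.13 (adjusted p = 0.0342, edgeR). The groups overlapped in both mouse cell types. Without the UV sample 1 the gene was called in Neuro2a (0.47, adjusted p = 0.00604, edgeR). The call in HippCulture was lost without the nonirradiated sample 1 or 3 or the UV sample 1 or 3 (log2 fold change 0.25 to 0.36). Human XPC shares 1458 of its 4798 exon bases with 3 genes on the other strand. XPC-AS1 shares 1140 of them (log2 fold change 0.27 in HepG2 and 0.08 in HEK293). For ENSG00000268279 the number is 413 (0.40 and -0.02) and for LSM3 318 (2.15 and 1.70). In mouse no shared exon base was found.

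ERCC6, the ATPase that starts transcription-coupled repair, fell in every cell type. Its values dropped from 13.4, 12.1 and 11.6 to 7.52, 5.51 and 6.09 normalized CPM in HepG2, a log2 fold change of -0.95 ± 0.13 (adjusted p = 0.000112, edgeR). In HEK293 they went from 37.8, 41.4 and 39.1 to 20.98, 18.9 and 22.2 (log2 fold change -0.93 ± 0.13, adjusted p = 0.000431, edgeR). Normalized reads in these lines were thus 0.518 and 0.525 times those without UV. In Neuro2a the values went from 45.8, 45.5 and 48.4 to 22.5, 17.2 and 20.7 (log2 fold change -1.20 ± 0.11, adjusted p = 6.58e-07, edgeR), and in HippCulture from 30.6, 30.3 and 31.2 to 20.5, 17.5 and 17.8 (-0.72 ± 0.11, adjusted p = 1.22e-05, edgeR). No UV sample reached the lowest nonirradiated sample of its cell type. ERCC6 shares no exon base with another gene in either species, and it stood at percentile 27.9, 21.2, 20.8 and 18.8 of the log2 fold changes of all genes tested in HepG2, HEK293, Neuro2a and HippCulture.

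The TFIIH helicase genes ERCC2 and ERCC3 had modest log2 fold changes, called in some cell types and not in others. In HepG2 ERCC2 went from 34.7, 33.3 and 34.8 to 43.7, 44.1 and 45.3 normalized CPM and ERCC3 from 31.5, 27.0 and 29.3 to 39.3, 40.4 and 38.3. Both rose there, by log2 fold changes of 0.37 ± 0.06 and 0.43 ± 0.08 (adjusted p = 0.00052 and 0.000829, edgeR), though keeping only genes with at least 10 counts in every sample lowered them to 0.10 and 0.15 and ended both calls. In Neuro2a, Ercc2 went from between 22.9 and 23.4 to between 26.7 and 30.4 normalized CPM and Ercc3 from between 19.5 and 22.8 to between 27.3 and 32.2. Their log2 fold changes were 0.31 ± 0.11 and 0.43 ± 0.12 (adjusted p = 0.0198 and 0.00641, edgeR), and the call of Ercc2 was lost without the nonirradiated sample 2 or 3 or the UV sample 3 (0.26 to 0.32). In HippCulture, Ercc2 was called (0.29 ± 0.11, adjusted p = 0.03, edgeR) except without the nonirradiated sample 1 or the UV sample 2 (0.27 and 0.21), and Ercc3 was not (0.31 ± 0.13, adjusted p = 0.0588, edgeR) except without the nonirradiated sample 3 or the UV sample 1 (0.45 and 0.42). In HEK293, neither was called (0.28 ± 0.15 and 0.06 ± 0.12, adjusted p = 0.158 and 0.68, edgeR), and the replicate block called ERCC2 higher (0.29 ± 0.08, adjusted p = 0.00165, edgeR). Without the nonirradiated HEK293 sample 1, which had the highest ERCC2 value of its group at 57.6 normalized CPM against 41.4 and 44.5, ERCC2 was called higher too (0.44, adjusted p = 0.0304, edgeR). Mouse Ercc2 shares 1780 of its 4170 exon bases with other genes, among them Klc3 and Gm26852 on the other strand. Their log2 fold changes were 0.61 and 0.03 in Neuro2a and 0.28 and 0.27 in HippCulture. Human ERCC2 shares 535 of 6450 with KLC3 (0.20 in HepG2 and 0.86 in HEK293). The part of shared reads in the values of ERCC2 was not tested. ERCC3 shares no exon base.

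XPA, the scaffold protein that verifies the lesion, is encoded by short mRNAs and rose in each cell type. Without UV its RPKM stood between percentile 49.9 (HepG2) and 62.2 (HEK293) of expressed protein-coding genes. Its values went from 5.04, 5.35 and 4.82 to 7.11, 7.67 and 7.01 normalized CPM in HepG2 and from 8.88, 11.97 and 11.7 to 16.0, 15.3 and 16.3 in HEK293. The mouse values were 7.54, 6.78 and 5.18 before and 10.2, 10.3 and 12.9 after UV in Neuro2a, with 8.42, 9.82 and 9.25 before and 11.8, 12.49 and 14.3 after it in HippCulture. The 2 groups did not overlap in any cell type, and the log2 fold changes were 0.52 ± 0.10, 0.55 ± 0.17, 0.77 ± 0.19 and 0.50 ± 0.14 in the order HepG2, HEK293, Neuro2a and HippCulture (adjusted p = 0.00116, 0.0234, 0.00262 and 0.00674, edgeR). The call was lost in HEK293 without the nonirradiated sample 1 or the UV sample 3 (0.43 and 0.57, adjusted p = 0.055 and 0.0586, edgeR) and in HippCulture without the UV sample 3 (0.40, adjusted p = 0.0644, edgeR). Human XPA shares no exon base. Mouse Xpa shares 77 of its 1894 exon bases with Ncbp1 on the other strand (log2 fold change -0.29 in Neuro2a and 0.01 in HippCulture). Counts of Ncbp1 without UV came to 1022% and 451% of those of Xpa. The part of such shared reads in the values of Xpa was not tested.

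**Figure D2:**
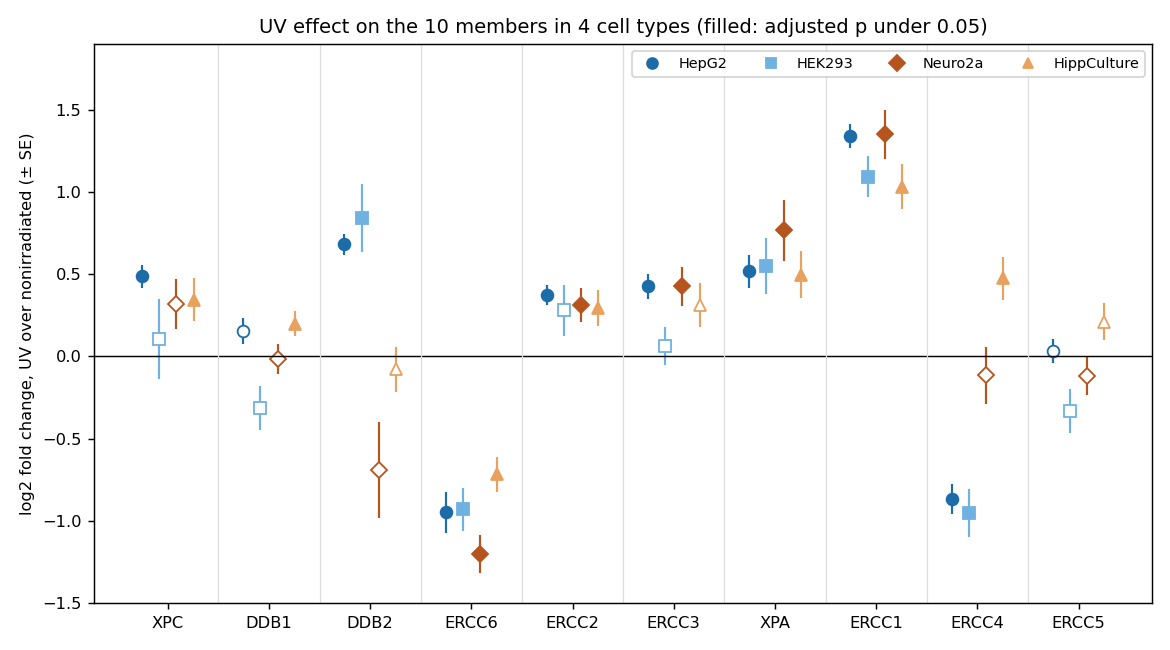
Log2 fold change of UV over nonirradiated samples (vertical axis, ± SE, 3 against 3 samples) of each gene in the 4 cell types, with filled symbols for an adjusted p under 0.05. ERCC1 lies between 1.03 and 1.35 and ERCC6 between -1.20 and -0.72, whereas ERCC4 runs from -0.95 in HEK293 to 0.47 in HippCulture.

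Of the incision nucleases, ERCC1, the noncatalytic subunit of the 5′ nuclease, rose most of the 10 genes in every cell type. It went from 22.0, 22.6 and 21.2 to 57.8, 56.9 and 51.6 normalized CPM in HepG2 and from 56.0, 54.9 and 49.1 to 110, 115 and 116 in HEK293. In Neuro2a the values were 10.5, 9.62 and 9.19 without and 20.1, 26.5 and 28.5 with UV, and in HippCulture 10.5, 9.10 and 11.6 without and 18.8, 24.2 and 21.4 with UV. Every UV sample was far above the nonirradiated ones. The log2 fold changes were 1.34 ± 0.07, 1.09 ± 0.12, 1.35 ± 0.15 and 1.03 ± 0.14 in HepG2, HEK293, Neuro2a and HippCulture (adjusted p = 5.61e-07, 0.000144, 2.48e-06 and 2.71e-06, edgeR), which placed ERCC1 at percentile 86.6, 88.0, 90.7 and 92.8 of all genes tested. Human ERCC1 shares 1593 of its 5576 exon bases with POLR1G on the other strand, a gene with a log2 fold change of 0.01 in HepG2 and 0.08 in HEK293. With all of the POLR1G counts taken away, the means of ERCC1 were 8.78 without and 42.2 with UV in HepG2 and 23.4 and 82.0 in HEK293, although taking away counts of a gene that changed less makes a fold larger by construction. Mouse Ercc1 shares 106 of 3111 bases with Cd3eap, which was called higher too (log2 fold change 1.56 in Neuro2a and 0.86 in HippCulture) and whose counts without UV came to 109% and 125% of those of Ercc1. The part of such shared reads in the values of Ercc1 was not tested in mouse.

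ERCC4, the catalytic subunit of the same nuclease, fell in the human lines. Its values were 16.3, 16.46 and 17.2 normalized CPM without and 8.32, 9.03 and 10.0 with UV in HepG2, and 30.7, 30.3 and 35.4 without and 16.8, 14.7 and 18.2 with UV in HEK293. The log2 fold changes were -0.87 ± 0.09 and -0.95 ± 0.15 (adjusted p = 2.63e-05 and 0.000691, edgeR), with no overlap of the groups. In HippCulture the mouse gene rose instead, from 11.2, 12.7 and 11.04 to 15.5, 17.1 and 16.1 (0.47 ± 0.13, adjusted p = 0.00437, edgeR), a direction that scaling by library size alone turned to -0.08. In Neuro2a values of 7.70, 8.31 and 8.57 without and 6.33, 8.42 and 7.999 with UV overlapped, at a log2 fold change of -0.12 ± 0.17 (adjusted p = 0.58, edgeR). The human gene shares 2174 of its 8460 exon bases with an lncRNA on the other strand (ENSG00000262732), whose log2 fold change was -0.41 in HepG2 and -0.45 in HEK293. After subtraction of all counts of this lncRNA the means of ERCC4 were 11.5 without and 5.26 with UV in HepG2 and 23.4 and 10.2 in HEK293, again with a fold made larger by construction. The mouse gene has no shared exon base.

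ERCC5, the 3′ nuclease, was not called in any cell type. In HepG2 its 3 UV samples at 31.8 to 35.2 normalized CPM overlapped the nonirradiated ones at 31.0 to 34.2 (log2 fold change 0.03 ± 0.07), and those of both mouse cell types overlapped as well (-0.12 ± 0.12 in Neuro2a and 0.21 ± 0.11 in HippCulture). In HEK293 all UV samples, at 46.6 to 58.4, were below the nonirradiated ones at 65.6 to 70.3 (-0.33 ± 0.13, adjusted p = 0.0648, edgeR), and the replicate block called this decrease (adjusted p = 0.000295, edgeR). Human ERCC5 shares 5213 of 8242 exon bases with the readthrough gene BIVM-ERCC5 on the same strand and 1572 with BIVM, so its counts cannot be separated from those of the readthrough.

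Genes whose products work as a pair can be compared inside a library, where no scaling between samples enters. The ratio of ERCC1 to ERCC4 counts was 1.35, 1.37 and 1.24 without and 6.95, 6.31 and 5.14 with UV in HepG2, a 4.62-fold rise, and it rose 4.14-fold in HEK293, 2.76-fold in Neuro2a and 1.48-fold in HippCulture. In each cell type every UV sample had the higher ratio (exact permutation test, two-sided, p = 0.1, the smallest that 3 against 3 samples allow). The ratio of DDB2 to DDB1 had no common direction, with 0.133, 0.120 and 0.119 without and 0.180, 0.181 and 0.174 with UV in HepG2 and a 2.22-fold rise without overlap in HEK293, against 0.627-fold in Neuro2a and 0.825-fold in HippCulture, where the groups overlapped. The ratio of ERCC2 to ERCC3 overlapped between UV and nonirradiated samples in every cell type, at 0.963-fold, 1.17-fold, 0.921-fold and 0.985-fold.

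**Figure D3:**
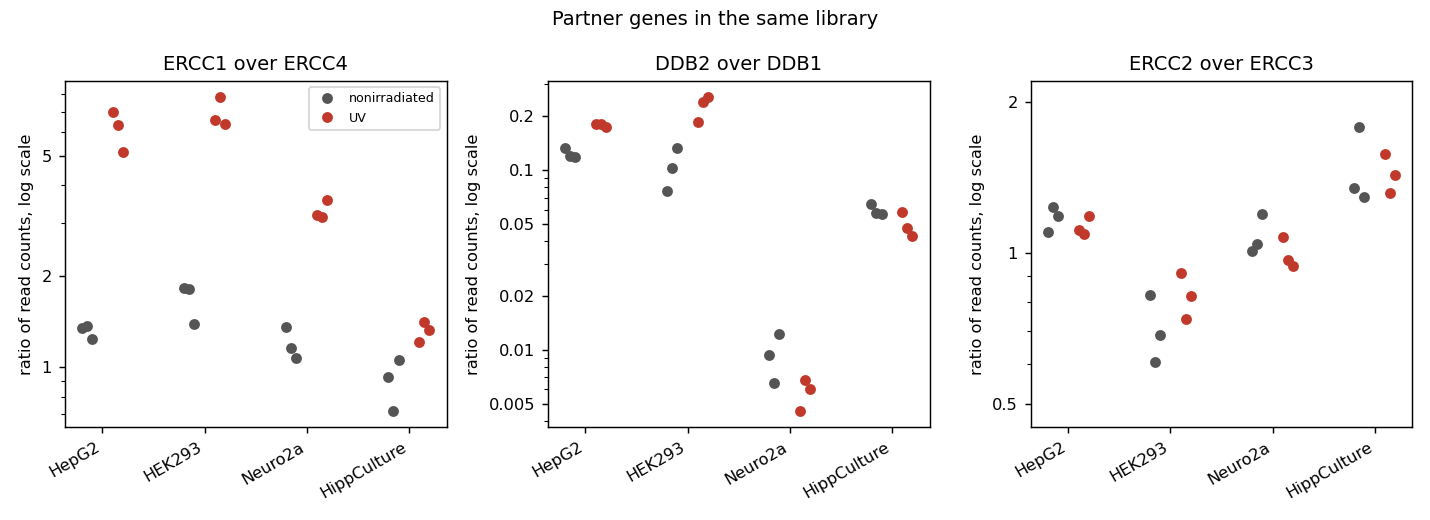
Ratios of raw read counts of 3 gene pairs within each library (log axes), nonirradiated in grey and UV in red, 1 point a sample. ERCC1 over ERCC4 is higher in the UV samples of all 4 cell types, DDB2 over DDB1 in HepG2 and HEK293, and ERCC2 over ERCC3 overlaps throughout.

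The 10 genes also differed in the transcripts they make, as annotated in GENCODE 44 and M21 for the transcript with the longest coding sequence. The human ERCC6 transcript has 9001 bases, of which 4345 are 3′ UTR, and that of mouse Ercc6 8423 with 3888 in the 3′ UTR. ERCC1 has 1278 bases with 114 in the 3′ UTR in human and 1375 with 52 in mouse. ERCC4 differs between the species, with 6918 bases and a 3′ UTR of 4001 in human against 3480 and 475 in mouse, although the exons counted for mouse Ercc4 cover 6730 bases, so longer forms than this transcript are annotated. Its share of U was 30.02% in human and 22.3% in mouse. The share was 29.4% and 26.8% for ERCC6 and 17.7% and 20.2% for ERCC1.

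Spearman's ρ between transcript length and log2 fold change over the 10 genes came to -0.94 (HepG2), -0.93 (HEK293), -0.62 (Neuro2a) and -0.67 (HippCulture). For the share of U it was -0.70, -0.77, -0.64 and -0.72, and for the 3′ UTR alone -0.44, -0.47, -0.28 and -0.33. These points share their libraries, and length and base composition vary together. Over all protein-coding genes tested (13055 to 14216) ρ with transcript length was -0.58, -0.61, -0.59 and -0.55, so the relation was not particular to repair genes. Over the same protein-coding genes ρ was -0.39, -0.43, -0.38 and -0.46 for the share of U. For the 3′ UTR it was -0.46, -0.48, -0.44 and -0.46. Mouse Ddb2, a short transcript of 1557 bases, had a log2 fold change of -0.69 in Neuro2a and -0.08 in HippCulture.

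**Figure D4:**
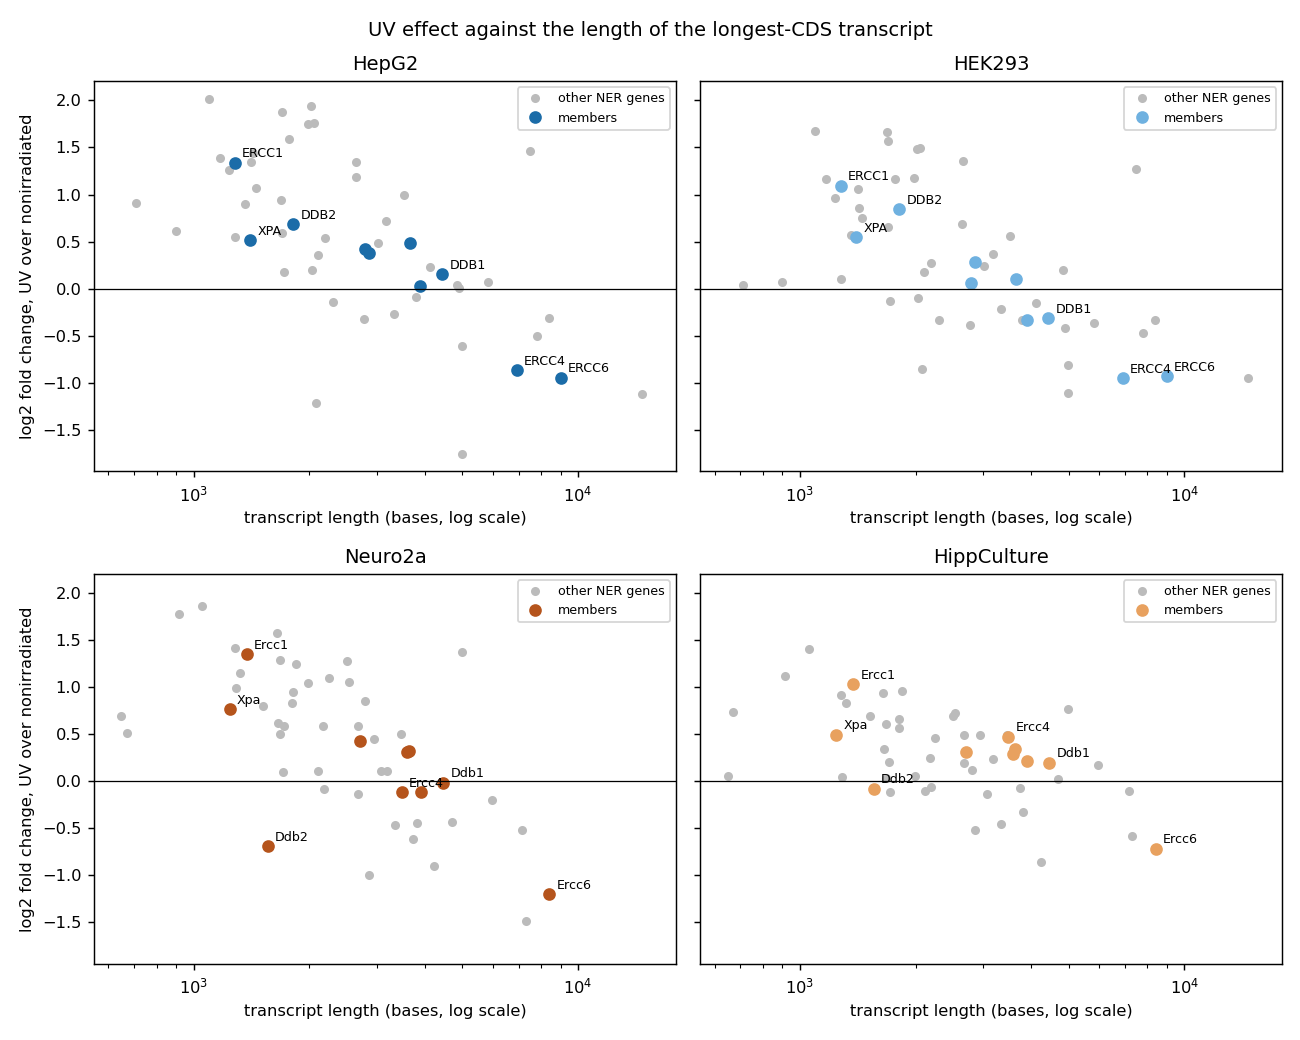
Log2 fold change of UV over nonirradiated samples (vertical axes) against the length in bases of the longest-CDS transcript (horizontal axes, log scale) for the 10 core genes (coloured, some named) and 41 other NER genes (grey), 1 panel a cell type. ERCC6, with 9001 or 8423 bases, lies at the lower right of every panel, and ERCC4 lies near it in the human panels.

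The other genes of the pathway were taken as a list of 41, namely further recognition factors, TFIIH subunits, transcription-coupled repair factors, RPA and the polymerases, clamp loader and ligases that fill the gap. In HepG2, 26 of these were called higher and 8 lower, and in HEK293 19 higher and 6 lower (23 and 12 with the replicate block). In Neuro2a 26 were called higher and 6 lower, and in HippCulture 18 higher and 5 lower. These counts stand beside 38.1%, 24.2%, 28.9% and 26.1% of all genes called higher and 40.7%, 26.4%, 33.0% and 25.9% called lower in that order, and with the block 32.7% and 35.3% in HEK293. The median log2 fold change of the list was 0.59, 0.24, 0.59 and 0.24, beside the medians of all and of protein-coding genes given above. By role, genes for gap filling and ligation made up 12, 10, 11 and 9 of the higher calls out of 18 genes. Of the 8 other TFIIH subunits 5, 3, 6 and 3 rose, and 2, 1, 0 and 0 fell. Of the 3 RPA subunits 2, 2, 3 and 2 rose. Of the 6 further recognition factors 4, 3, 3 and 1 rose and 1, 1, 2 and 2 fell, and of the 6 other transcription-coupled repair factors 3, 1, 3 and 3 rose and 2, 1, 2 and 2 fell.

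UVSSA, which acts with ERCC6 at stalled polymerase, was among the 2 genes of this list that fell most in all 4 cell types. Its normalized CPM fell from a mean of 22.4 ± 11.97 (SD, n = 3) to 6.60 ± 0.52 in HepG2 and from 11.5 ± 1.37 to 5.36 ± 1.14 in HEK293 (log2 fold change -1.76 ± 0.33 and -1.11 ± 0.21, adjusted p = 0.000955 and 0.00226, edgeR). In Neuro2a the mouse gene fell to 3.75 ± 0.50 from 10.6 ± 1.02 (-1.48 ± 0.19) and in HippCulture to 9.74 ± 1.42 from 14.5 ± 2.38 (-0.58 ± 0.16). Other transcription-coupled repair factors, named here after their values were seen, went otherwise. XAB2, a partner of ERCC6 and ERCC8, was called higher in all 4 cell types (log2 fold change 1.19, 0.69, 0.59 and 0.49), and ERCC8 (CSA) was called in none (0.19, -0.10, 0.11 and -0.10). The other strongest decreases were those of GTF2H2, a TFIIH subunit with near-identical copies in the human genome, in HepG2 (-1.22 ± 0.18), of the translesion polymerase gene POLK in HEK293 (-0.95 ± 0.18) and HippCulture (-0.86 ± 0.22), and of Tcea1, which encodes the elongation factor TFIIS, in Neuro2a (-1.001 ± 0.09).

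The strongest increases on this list in HepG2 were those of POLE4, a small subunit of DNA polymerase epsilon, with a mean of 12.3 ± 0.53 without and 49.8 ± 1.10 normalized CPM with UV (SD, n = 3), and RPA3, the smallest RPA subunit, with 13.0 ± 2.55 and 50.0 ± 1.39 (log2 fold change 2.02 ± 0.07 and 1.94 ± 0.13). In HEK293 they were POLE4 again (1.68 ± 0.42) and RFC2 of the clamp loader (1.66 ± 0.22). In both mouse cell types they were Elof1, an elongation factor that acts in transcription-coupled repair (1.86 ± 0.12 in Neuro2a and 1.41 ± 0.13 in HippCulture), and Pold4 of DNA polymerase delta (1.78 ± 0.24 and 1.12 ± 0.24). Scaling by library size alone ended the calls of POLE4 in HEK293 (0.89) and Pold4 in HippCulture (0.57). ERCC1 itself ranked below all of these. As a neighbouring pathway, 17 base excision repair genes gave 14, 11, 7 and 7 higher and 2, 2, 2 and 1 lower calls (16 tested in HippCulture), with a median log2 fold change of 0.98, 0.80, 0.13 and 0.40. Of all genes, 38.1%, 24.2%, 28.9% and 26.1% were called higher and 40.7%, 26.4%, 33.0% and 25.9% lower.

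Whether the change upon UV differed between cell types of a species was tested as an interaction. Between HepG2 and HEK293 none of the 10 genes was called by edgeR, where 7.95% of 16759 genes were called in either direction, with 1 gene at an unadjusted p under 0.05 and none by DESeq2. That gene was DDB1, with a difference of 0.37 ± 0.16 on the log2 scale (adjusted p = 0.185, edgeR). For ERCC1 the difference was 0.14 ± 0.13, for ERCC4 -0.01 ± 0.17 and for ERCC6 -0.12 ± 0.17, and a p that misses the threshold does not show that the lines responded alike. Between Neuro2a and HippCulture 2 of the 10 genes were called, both more negative in Neuro2a, where 24.5% of 14973 genes were called and the median difference of all genes was -0.14. These were Ercc6, with a difference of -0.49 ± 0.15 (adjusted p = 0.0255, edgeR), and Ercc4, with -0.60 ± 0.21 (adjusted p = 0.0394, edgeR). Neither was called with DESeq2's size factors (-0.40 and -0.50, adjusted p = 0.0673 and 0.0797, edgeR) or by DESeq2 (adjusted p = 0.0999 and 0.138). The call of Ercc6 was lost without the nonirradiated Neuro2a sample 3, the UV Neuro2a sample 2 or the UV HippCulture sample 1 (-0.46, -0.39 and -0.40), and that of Ercc4 without any of 9 of the 12 samples, with differences from -0.68 to -0.48 over all 12.

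Levels of the 10 genes in nonirradiated samples were compared as RPKM, which divides by the length of all exons of a gene in the files. DDB1 was the highest in every cell type, at 27.8 ± 2.62 RPKM (SD, n = 3) in HepG2 and 39.2 ± 3.03 in HEK293, with 170 ± 13.2 for Neuro2a and 68.8 ± 1.46 for HippCulture, and it stood at percentile 93.0, 94.3, 98.7 and 97.7 of expressed protein-coding genes. Its samples lay apart from those of the next gene everywhere, with means 2.85, 2.14, 14.8 and 9.02 times as high in the same order. At the other end stood ERCC6 in the human lines, at 1.16 ± 0.07 and 3.08 ± 0.16 RPKM, below ERCC4 at 3.09 ± 0.12 and 4.96 ± 0.46. In mouse Ercc4 was the lowest, at 1.84 ± 0.08 RPKM in Neuro2a, where Ddb2 at 2.39 ± 0.59 overlapped it, and at 2.102 ± 0.17 in HippCulture, where Ercc6 at 2.90 ± 0.05 was next.

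The remaining genes lay between these. In HepG2 they ran from DDB2 (9.76 ± 0.39 RPKM) over ERCC2 (8.35 ± 0.17), XPC (7.11 ± 0.34), ERCC5 (6.30 ± 0.43), ERCC1 (6.18 ± 0.22) and ERCC3 (5.46 ± 0.35) to XPA (4.35 ± 0.26), and of these neighbours ERCC5 and ERCC1 alone overlapped. In HEK293 XPC came second (18.3 ± 4.26), and ERCC1 (12.49 ± 0.81), DDB2 (11.4 ± 2.38), ERCC5 (10.8 ± 0.47), ERCC3 (10.5 ± 0.35), ERCC2 (9.67 ± 1.67) and XPA (7.72 ± 1.26) each overlapped the next. In Neuro2a the order was Ercc3 (11.5 ± 1.10), Ercc2 (8.42 ± 0.09), Ercc5 (6.68 ± 0.35), Ercc6 (5.48 ± 0.13), Xpa (5.20 ± 1.02), Xpc (4.98 ± 0.25) and Ercc1 (4.75 ± 0.37), with overlaps from Ercc6 to Ercc1. In HippCulture Ercc3 (7.63 ± 0.85) and Ercc2 (7.55 ± 0.67) overlapped, as did Ddb2 (6.24 ± 0.46) and Xpa (5.87 ± 0.47), and Ercc5 (4.08 ± 0.21), Ercc1 (4.05 ± 0.49) and Xpc (3.48 ± 0.49). The order depends on the length used, since the exon length in the files exceeds that of the longest-CDS transcript by up to 4.36 times (human ERCC1). With transcript lengths, an alternative chosen after seeing the data, ERCC1 moved from place 6 to 2 in HepG2 and from 3 to 2 in HEK293, while DDB1 stayed first and ERCC6 last there.

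**Figure D5:**
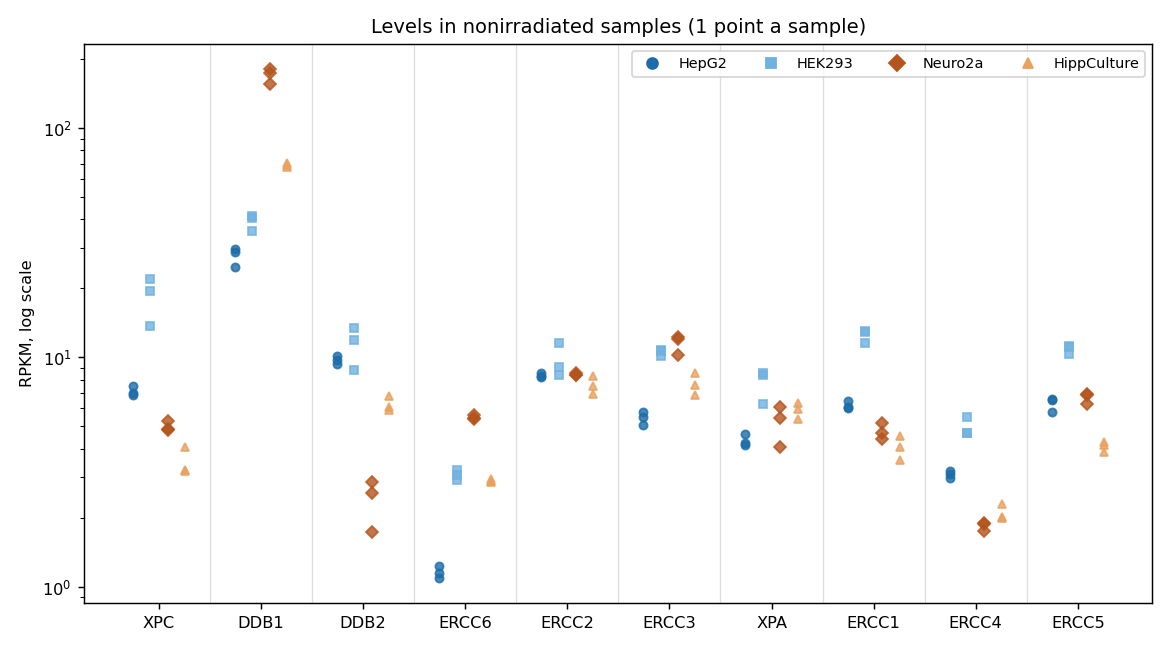
RPKM (log axis) of the 10 genes in the nonirradiated samples of the 4 cell types, 1 point a sample. Ddb1 in Neuro2a is the highest at 155 to 180, ERCC6 in HepG2 the lowest at 1.10 to 1.23, and Ddb2 is lower in Neuro2a than in HippCulture.

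Between the human lines, on a scale shared by their 6 nonirradiated samples, 5 of the 10 genes were called, all lower in HepG2, where 75.7% of 23830 genes were called, 38.1% lower and 37.6% higher. ERCC6 had 24.3, 22.4 and 21.2 normalized CPM in HepG2 and 41.8, 46.6 and 44.1 in HEK293 (log2 difference -0.97 ± 0.13, adjusted p = 3.1e-05, edgeR). XPC had 38.7, 41.9 and 38.6 against 56.1, 79.9 and 90.6 (-0.93 ± 0.17, adjusted p = 0.000443, edgeR). These ranges lay apart, as did those of ERCC1 (-0.57 ± 0.12, adjusted p = 0.0012, edgeR), ERCC3 (-0.50 ± 0.12, adjusted p = 0.00302, edgeR) and ERCC5 (-0.34 ± 0.12, adjusted p = 0.0246, edgeR). The call of ERCC5 was lost without the HepG2 sample 2 or 3 or the HEK293 sample 2 or 3 (-0.37 to -0.29). The differences of the other 5 genes were not called, at -0.39 ± 0.17 for XPA, -0.24 ± 0.13 for ERCC4, -0.05 ± 0.15 for DDB1, 0.22 ± 0.16 for DDB2 and 0.23 ± 0.14 for ERCC2. Without the HEK293 sample 1, XPA and ERCC2 were called (-0.51 and 0.38). Since these are bulk samples of whole cultures, fewer cells of a type and less RNA per cell cannot be told apart.

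Between Neuro2a and HippCulture 7 of the 10 genes were called, 5 higher and 2 lower in Neuro2a, where 80.4% of 20940 genes were called, 39.0% higher and 41.4% lower. Ddb1 had 709, 688 and 621 normalized CPM in Neuro2a against 300, 292 and 308 in HippCulture (log2 difference 1.16 ± 0.08, adjusted p = 2.04e-10, edgeR). Its partner Ddb2 went the other way, with 6.63, 4.51 and 7.58 against 19.4, 16.8 and 17.6 (-1.54 ± 0.17, adjusted p = 1.34e-07, edgeR). The 2 subunits of UV-DDB were thus apart in opposite directions. Ercc6 was higher in Neuro2a, with 66.2, 65.5 and 69.6 against 38.8, 38.4 and 39.9 (0.78 ± 0.08, adjusted p = 1.01e-07, edgeR), and so were Ercc5 (0.57 ± 0.10), Ercc3 (0.45 ± 0.11) and Xpc (0.38 ± 0.12), while Ercc4 was lower (-0.33 ± 0.13, adjusted p = 0.0287, edgeR). The call of Xpc was lost without the Neuro2a sample 2 or the HippCulture sample 1 (0.28 and 0.27), and that of Ercc4 without the Neuro2a sample 1 or the HippCulture sample 2 (-0.29 and -0.31). Ercc1, Ercc2 and Xpa differed by 0.09 ± 0.14, 0.02 ± 0.10 and -0.31 ± 0.16, none of them called, although Xpa was without the Neuro2a sample 1 or the HippCulture sample 1 (-0.43 and -0.42). All 6 proliferation markers, summing to 199 to 293 RPKM in Neuro2a and 10.5 to 13.95 in HippCulture, were higher in Neuro2a, as were 32 of the 41 other NER genes (5 lower), 16 of them among the 18 for gap filling and ligation, which also serve DNA replication. The part of cell division in these differences was not tested.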

How the data were processed

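Per the file headers, the authors counted reads on GENCODE exons (release 28 human, M17 mouse) with featureCounts 1.5.3 (HepG2) or 1.6.1 (others), after mapping with TopHat2 2.1.1 to hg38 or mm10 per the labels. The deposited values are whole-number read counts per gene without normalization. Reads over several genes counted for each, and no option for strand or multiple mapping is given. The labels name a stranded kit, while the methods name TruSeq RNA Sample Preparation v2 and do not mention strand. Fits were made per cell type with edgeR 4.0.16 (quasi-likelihood test, TMM) in R 4.3.3 over genes with a mean of at least 0.5 CPM in nonirradiated samples, with p-values adjusted by Benjamini-Hochberg over all genes tested and called under 0.05. RPKM used the exon length in the files and TMM-scaled library sizes. Code was tested on simulated data. Alternatives were DESeq2 1.42.0, its size factors, library sizes alone, other filters, a replicate block and leaving out each sample. The count ratios, transcript lengths for RPKM, subtraction of overlapping counts and HEK293 without both samples numbered 1 were added after seeing the data.

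In HEK293, deviations of same-numbered samples from their group means correlated at 0.589, 0.302 and 0.391. Samples 2 and 3 also correlated with each other across the groups (0.236 and 0.220). Sample 1 correlated negatively with both (-0.449 to -0.371), so a pairing of samples 2 and 3 by number was weak. In the other cell types at least 1 correlation of same-numbered samples was under 0.1. Figures used matplotlib 3.10.9 and other values Python 3.11.15 with pandas 2.3.3 and scipy 1.17.1. The 10 genes and the lists of other genes were chosen with earlier results of these data known. Named genes are the 10 core genes and, of the other NER genes called in a cell type, the 2 lowest and 2 highest log2 fold changes. Features come from GENCODE 44 and M21, whose genes covered 98.93% of human and 99.82% of mouse identifiers. A marker of the Neuro2a list is not reported here.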

Additional observations from a re-analysis of the deposited data

Results flagged for a closer look

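The changes of Ercc6 and Ercc4 upon UV were called different between Neuro2a and HippCulture by an interaction test (-0.49 and -0.60 on the log2 scale). Of all genes, 24.5% were called in that test. Neither gene was called by DESeq2 or with its size factors, and the number called changed in 10 of 12 fits without 1 sample. The following differences between human and mouse cell types stand out because every UV sample of one cell type lay above, and every UV sample of the other below, its nonirradiated samples, and these differences were not tested. ERCC4 had log2 fold changes of -0.87 in HepG2 and -0.95 in HEK293 against 0.47 in HippCulture. DDB2 had log2 fold changes of 0.68 in HepG2 and 0.84 in HEK293 against -0.69 in Neuro2a. For DDB1 the log2 fold changes were -0.32 in HEK293 and 0.20 in HippCulture. The changes of Ddb2 in Neuro2a and of DDB1 in HEK293 were not called. The share of all genes with groups apart in this way was not determined.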

How the results depend on the processing

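Scaling was the choice with the widest effect. With library sizes alone, the core genes called lower numbered 9 (HepG2), 6 (HEK293), 9 (Neuro2a) and 3 (HippCulture), and those called higher 0, 0, 0 and 1, where 78.7%, 54.6%, 73.8% and 49.5% of all genes were called lower and 8.62%, 7.61%, 6.07% and 7.14% higher. Of the other NER genes, 27, 22, 25 and 17 were then called lower and 6, 9, 3 and 2 higher. Log2 fold changes that turned negative were ERCC3 -0.88, XPC -0.82, XPA -0.79, DDB2 -0.62, DDB1 -1.15, ERCC5 -1.27 and ERCC2 -0.93 in HepG2 and ERCC3 -0.70, XPC -0.65, XPA -0.22 and ERCC2 -0.48 in HEK293. In mouse they were Xpa -0.43, Xpc -0.88, Ercc2 -0.88 and Ercc3 -0.77 in Neuro2a and Ercc5 -0.34, Xpa -0.049, Xpc -0.21, Ercc2 -0.26, Ercc4 -0.077, Ercc3 -0.23 and Ddb1 -0.36 in HippCulture. The differences of the change upon UV between HepG2 and HEK293 turned to -0.18 for ERCC3, -0.17 for XPC, -0.078 for DDB1, -0.18 for ERCC5 and -0.30 for ERCC1, and those between Neuro2a and HippCulture to -0.38 for Xpa, -0.33 for Ercc1, -0.62 for Ercc2 and -0.53 for Ercc3, with 8 core genes called. Between the nonirradiated human lines DDB2 turned to -0.23 and ERCC2 to -0.21, and 8 core genes were called. Of all genes, 50.2% were called lower and 0.427% higher for Neuro2a minus HippCulture, and 48.5% lower and 28.7% higher between these lines. All 16 named changes of other NER genes kept their direction under the alternatives run, and only POLE4 in HEK293 and Pold4 in HippCulture lost their call (0.89 and 0.57).

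Under the other filters and tools, small values changed sign. In HepG2 ERCC5 went to -0.0357 with DESeq2's size factors, -0.0362 with DESeq2, -0.0164 with every gene of at least 1 count, -0.24 with at least 10 counts in every sample and -0.0554 with 0.5 CPM over all samples, and DDB1 to -0.12 with at least 10 counts. With at least 10 counts ERCC3 and XPC went to -0.0465 and -0.0107 in HEK293, where 4 core genes were called lower, beside 29.1% of all genes. In Neuro2a 2 were called lower with DESeq2's size factors, with every other filter and with the replicate block. Of all genes, 34.3% were called lower with these size factors, 17.9% to 36.7% with the filters and 34.6% with the block. In HippCulture 3 were called higher by DESeq2, with at least 1 count and with at least 10 counts, beside 21.9%, 13.9% and 31.0% of all genes. Between cell types, ERCC4 and ERCC2 went to 0.0468 and 0.0450 (HepG2 minus HEK293, 0.5 CPM over all samples), Xpc to 0.0603 and 0.0643 (Neuro2a minus HippCulture, DESeq2's size factors and DESeq2), Ercc2 to -0.0753, -0.0075 and -0.11 (at least 1 count, at least 10 counts and 0.5 CPM over all samples) and Ercc3 to -0.0117 (the last of these), and the number called there was 0 with DESeq2's size factors, 0 with DESeq2 and 1 with at least 1 count. In the same order, 12.7%, 11.4% and 6.83% of all genes were called lower for Neuro2a minus HippCulture and 11.8%, 10.6% and 1.96% higher. Between nonirradiated samples DDB1 went to 0.0452 and 0.0755 in the human lines under the count filters, and in mouse Ercc1 went to -0.00197 with at least 10 counts and Ercc2 to -0.0508, -0.0511, -0.0271 and -0.0734 with DESeq2's size factors, DESeq2 and at least 1 and 10 counts. The cause of these shifts was not tested.

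With the replicate block, 4 core genes and 12 other NER genes were called lower in HEK293, beside 35.3% of all genes. Same-numbered samples deviated together there, most of all those numbered 1. In the other cell types the samples shared only a number, and the block moved Ddb2 (-0.69) and Xpc (0.31) past the threshold in Neuro2a and Ercc3 (0.31) in HippCulture. Without both HEK293 samples numbered 1, chosen after seeing the data, ERCC5 (-0.26) and ERCC2 (0.38) were called there.

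Leaving out 1 sample at a time ended 16 calls among 240 fits of core genes in the UV comparisons. The 240 include fits of genes that had no call to lose. HippCulture accounted for 11 of these losses (among 60 fits), Neuro2a for 3 and HEK293 for 2, while HepG2 lost 0. Calls were also gained, 2 of them for HippCulture, 2 for Neuro2a and 1 for HEK293. The number called lower in Neuro2a ranged from 1 to 2, higher in HippCulture from 3 to 6, and for Neuro2a minus HippCulture from 0 to 2. Where the sign changed, log2 fold changes ranged from -0.0868 to 0.0737 for ERCC5 in HepG2, -0.0603 to 0.32 for XPC in HEK293, -0.0698 to 0.0238 for Ddb1 in Neuro2a and -0.17 to 0.0136 for Ddb2 in HippCulture. For HepG2 minus HEK293 they were -0.21 to 0.00271 for XPA, -0.10 to 0.0629 for ERCC4 and -0.15 to 0.0756 for ERCC2, and for Neuro2a minus HippCulture -0.21 to 0.13 for Xpc and -0.0448 to 0.0907 for Ercc2. Between nonirradiated samples they were -0.11 to 0.0228 for DDB1 in the human lines, and -0.0417 to 0.19 for Ercc1 and -0.0943 to 0.0381 for Ercc2 in mouse. Low counts limit Ddb2 in Neuro2a, with 11 to 15 reads per UV sample.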
